A study of Mus musculus with 18 samples.

Results

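Transcripts of the receptors for interleukin (IL)-5, IL-3, granulocyte-macrophage colony-stimulating factor (GM-CSF), macrophage colony-stimulating factor (M-CSF) and granulocyte colony-stimulating factor (G-CSF) were followed in mouse eosinophils cultured with apoptotic cells (ACs). The receptor genes were chosen by name as a receptor family, not by a threshold on their values but with earlier results of these data known, and are Il5ra, Csf2rb, Csf2rb2, Csf2ra, Il3ra, Csf1r and Csf3r, which makes 7 of the 54446 genes in the table. All 7 were measured and passed the filter on low values in both experiments. The eosinophils came from the peritoneal cavity of Il5 transgenic mice (line NJ.1638, strain labelled C57BL/6), in which an Il5 transgene expressed in T cells raises eosinophil numbers, and they shared the culture with 5 dexamethasone-killed wild-type thymocytes per eosinophil for 18 h and were then selected again on anti-Siglec-F beads. The Type 1 experiment had 4 groups of 3 libraries: ACs by themselves, ACs together with E. coli, ACs together with IFN-γ, and ACs together with IFN-γ and E. coli (below, both stimuli). In the IL-4 experiment, 3 libraries were made from eosinophils with ACs and 3 from eosinophils with IL-4 + ACs. Every group thus contained ACs, and stimulated groups of the Type 1 experiment are named by their stimulus from here on. The comparisons ask what a stimulus added to ACs, each against the ACs libraries of its own experiment. The ages and sexes of the Il5 transgenic mice are not given in the sources used here.

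IL-5, IL-3 and GM-CSF each bind a private α chain, encoded by Il5ra, Il3ra and Csf2ra, and the bound α chain pairs with a β chain that carries the signal through JAK2 and STAT5. The common β chain, encoded by Csf2rb, serves all of these cytokines, whereas the mouse has an additional β chain, encoded by the neighbouring gene Csf2rb2, which pairs with the IL-3 receptor only. IL-5 is the main growth, survival and activation factor of eosinophils, and IL-3 and GM-CSF prolong their survival too. Csf1r, the receptor tyrosine kinase for M-CSF and IL-34, is best known from monocytes and macrophages, and Csf3r, the G-CSF receptor, from neutrophils.

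The 18 libraries held between 779421 and 7782072 reads on genes, with a median of 4461121, and replicate 3 of both groups of the IL-4 experiment was the shallowest, with 779421 reads for ACs and 849705 for IL-4 + ACs. Values are normalized counts, that is, reads divided by a size factor of the library, so that 1 read stood for between 0.53 and 5.36 normalized counts. For eosinophils cultured with ACs, the study describes samples as taken from different mice. For the stimulated groups it calls them biological replicates without naming mice, so that p-values measure the spread between these libraries, which may be technical in part. Groups were compared by limma on log2(normalized count + 1), a scale that understates changes of low genes; a gene was called at an adjusted p under 0.05 together with a fold change of at least 1.5, the threshold used in the original methods. The eosinophil markers Siglecf, Ccr3 and Alox15 were detected in every library, whereas the mature granule genes Epx and Prg3 were near 0 (group means of 0.46 to 14.1 and 1.89 to 17.4 normalized counts). Low values were not shared by all granule genes on the list, since Prg2, Ear2 and Ear6 passed the filter on low values in both experiments. Summed over 9 eosinophil markers without Il5ra, the level was 15892 to 17300 normalized counts with ACs, 17285 to 18462 with E. coli, 9757 to 11005 with IFN-γ and 14137 to 16805 with both stimuli, and it was 21102 to 26385 across the IL-4 experiment. Macrophage markers were also present: summed over 13 of them without Csf1r, the level was 18365 to 23931 with ACs, 10087 to 12763 with E. coli, 31820 to 41672 with IFN-γ and 12538 to 13637 with both stimuli, and in the IL-4 experiment it was 28404 to 42280 with ACs and 22153 to 37650 with IL-4 + ACs. None of the 13 was at 0 in all libraries of a group. In bulk libraries of this kind, fewer cells of a type and less RNA per cell cannot be told apart. The sums of the mast cell and basophil, thymocyte and B cell markers were at most 274 normalized counts in every library.

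**Figure D1:**
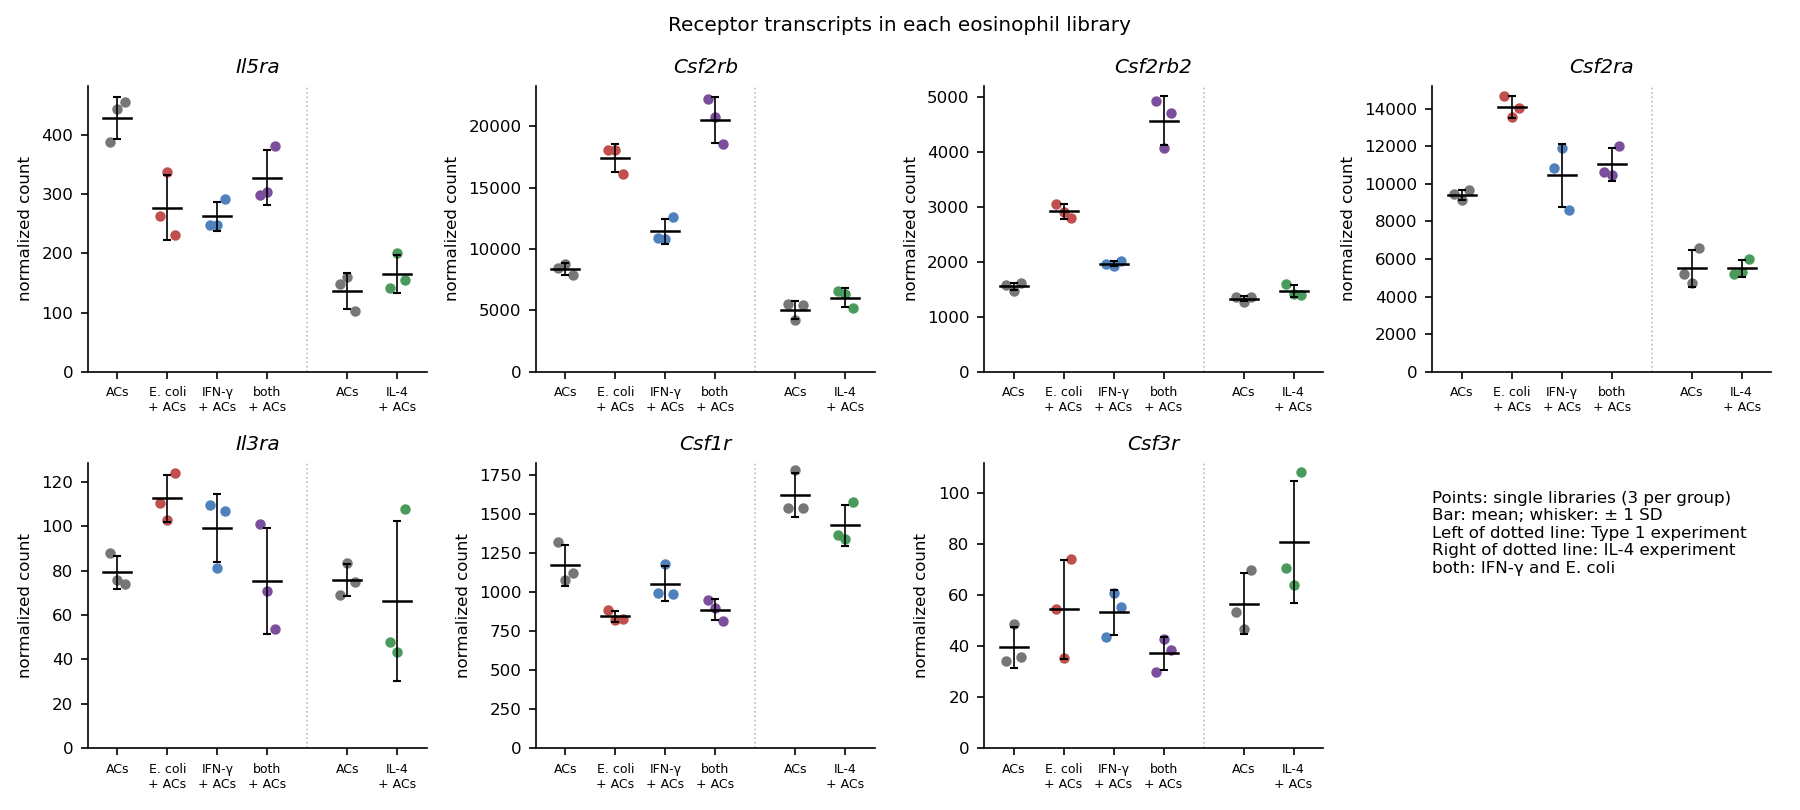
Normalized counts (y axes, linear and starting at 0) of the 7 receptor transcripts in each of 18 eosinophil libraries (points), with the mean of 3 libraries and ± 1 SD per group. Csf2rb and Csf2rb2 stood highest with both stimuli, and Il5ra stood highest with ACs of the Type 1 experiment. Between IL-4 + ACs and the ACs of that experiment, no receptor was called, beside 1.09% of the genes tested.

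With E. coli and with both stimuli, the largest log2 fold changes against ACs among the 7 receptors were those of the β chains. Csf2rb (ENSMUSG00000071713.6, chr15:78325752-78353847, plus strand, GRCm38) and Csf2rb2 (ENSMUSG00000071714.7, chr15:78282507-78305721, minus strand) lie side by side in opposite orientation and are near copies of each other, so that their reads could be confused. The coding sequence that ends Csf2rb2 and its counterpart in Csf2rb are shown because they display both the likeness and the end of it. Over 90 bases, 84 were the same and 6 differed (93.3% identity), with the differing bases in capitals. The Csf2rb stretch is chr15:78349039-78349128 on the plus strand and the Csf2rb2 stretch is chr15:78284320-78284409 on the minus strand (GRCm38, GENCODE transcripts Csf2rb-206 and Csf2rb2-201). In Csf2rb the reading frame runs on for 54 bases beyond the stretch, whereas in Csf2rb2 the stop codon follows at once.
Csf2rb: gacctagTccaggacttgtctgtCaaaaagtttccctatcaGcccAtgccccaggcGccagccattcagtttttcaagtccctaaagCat
Csf2rb2: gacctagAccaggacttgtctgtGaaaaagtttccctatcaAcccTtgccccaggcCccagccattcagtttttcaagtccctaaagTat
Of all 50-base windows of the Csf2rb transcript, 18.4% also occurred in a Csf2rb2 transcript, and 19.0% the other way round. In the last 500 bases, which the 3′ end protocol reads preferentially, 0 of 451 windows of either transcript occurred in the other. Only uniquely mapped reads had been counted according to the study's methods. Changes with the counts of both genes summed are given below. Csf2rb was the higher of these genes, with a mean of 8381 normalized counts beside 1554 for Csf2rb2 with ACs of the Type 1 experiment. The sum thus mainly follows Csf2rb and cannot check Csf2rb2.

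Following culture with E. coli, Csf2rb rose 2.08-fold, and with both stimuli it rose 2.44-fold. The libraries with ACs held 8482, 8787 and 7873 normalized counts of Csf2rb, those with E. coli 18034, 18061 and 16127, those with IFN-γ 10894, 10817 and 12643, and those with both stimuli 22249, 20739 and 18545. These 4 groups did not overlap with one another, and their order was ACs, IFN-γ, E. coli and both stimuli. Against ACs, the log2 fold change was 1.05 (SE 0.11, 2.08-fold, 95% interval 1.78 to 2.42, adjusted p = 1.3e-06 by limma) with E. coli and 1.29 (SE 0.11, 2.44-fold, 95% interval 2.09 to 2.85, adjusted p = 1.8e-08) with both stimuli. With IFN-γ alone the log2 fold change was 0.45 (SE 0.11, adjusted p = 0.0038 by limma), which is 1.36-fold and below the fold threshold. Csf2rb was higher with both stimuli than with IFN-γ alone by 0.84 on the log2 scale (SE 0.11, adjusted p = 2.0e-05), and the top of the order was not separated beyond the spread, since both stimuli exceeded E. coli alone by 0.23 (SE 0.11, adjusted p = 0.12). The log2 difference of IFN-γ minus E. coli was -0.61 (SE 0.11, adjusted p = 3.5e-04 by limma), and it fell just short of the fold threshold when replicate 1 or 2 of E. coli or replicate 1 or 2 of IFN-γ was left out (log2 differences of -0.58, -0.58, -0.57 and -0.57).

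Csf2rb2, the β chain reserved for IL-3, moved in parallel and showed its largest rise with both stimuli. ACs libraries held 1576, 1475 and 1612 normalized counts, E. coli libraries 3056, 2915 and 2796, IFN-γ libraries 1972, 1929 and 2013, and libraries with both stimuli 4938, 4079 and 4708. Here, too, no 2 of these groups overlapped, and the order of the groups was that of Csf2rb. The log2 fold change against ACs was 0.91 (SE 0.10, 1.88-fold, 95% interval 1.62 to 2.18, adjusted p = 3.6e-06 by limma) with E. coli and 1.55 (SE 0.10, 2.93-fold, 95% interval 2.53 to 3.40, adjusted p = 6.0e-10) with both stimuli. IFN-γ alone gave 0.34 (SE 0.10, adjusted p = 0.016), which is 1.27-fold and below the fold threshold. In contrast to Csf2rb, the level with both stimuli exceeded that with E. coli alone past the threshold, by 0.64 on the log2 scale (SE 0.10, adjusted p = 1.1e-04 by limma), although this step was 0.54 and under 1.5-fold when libraries were scaled to a common upper quartile. It exceeded that with IFN-γ alone by 1.21 (SE 0.10, adjusted p = 2.4e-07). The log2 difference of IFN-γ minus E. coli was -0.57 (SE 0.10, adjusted p = 3.8e-04), just under the fold threshold. With the counts of both β chains summed, the log2 fold changes were 1.03 with E. coli, 0.43 with IFN-γ and 1.33 with both stimuli. The summed step from E. coli alone to both stimuli was 0.30 (adjusted p = 0.038 by limma), under 1.5-fold.

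Expressed as a ratio within each library, which does not depend on the size factor, Csf2rb to Csf2rb2 was on the log2 scale 2.43, 2.57 and 2.29 with ACs, 2.56, 2.63 and 2.53 with E. coli, 2.47, 2.49 and 2.65 with IFN-γ, and 2.17, 2.35 and 1.98 with both stimuli. The ratio with both stimuli overlapped that with ACs and lay below that of each single stimulus. A two-sided exact permutation test within strata gave p = 0.215 for IFN-γ (difference in means -0.15) and p = 0.33 for E. coli (-0.11), with adjusted p-values of 0.43 and 0.48 over the 6 ratio tests made. For E. coli the difference in means was 0.14 without IFN-γ and -0.37 with it. The test averages the strata, so that differences of opposite sign offset each other, and the difference between strata was not tested. Whether the β chains differed in their response was thus not resolved by this ratio.

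**Figure D2:**
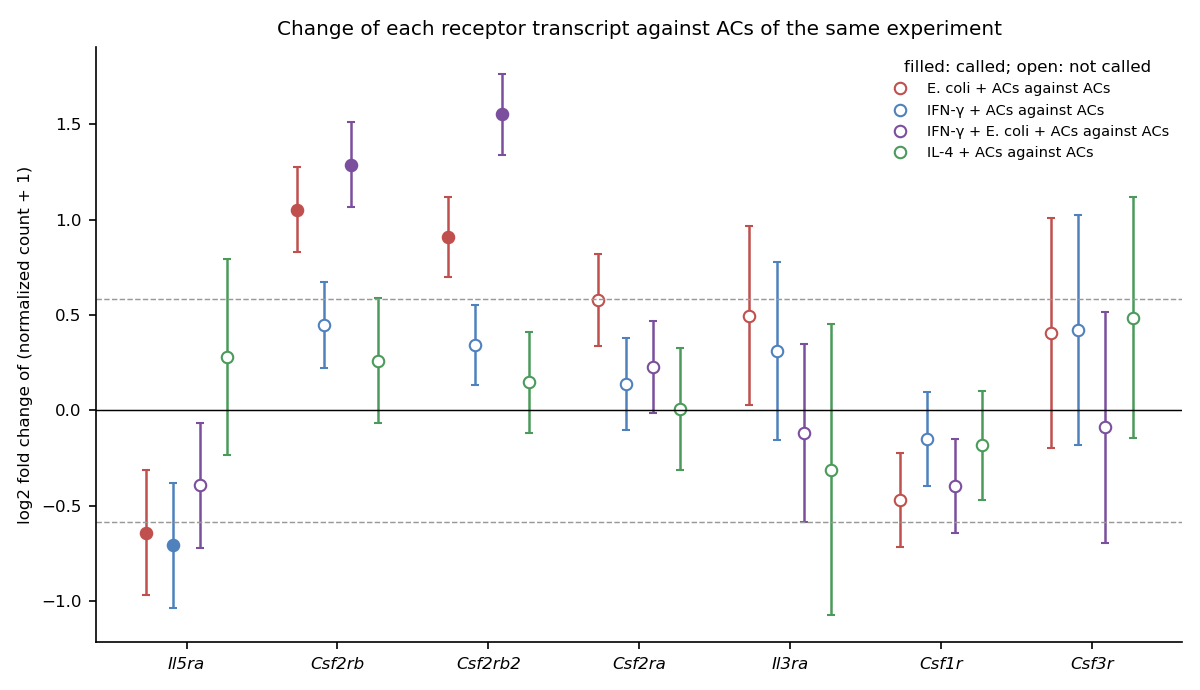
Log2 fold change of (normalized count + 1) against the ACs libraries of the same experiment (y axis) for the 7 receptor transcripts (x axis), with 95% intervals from limma and dashed lines at 1.5-fold; filled points passed both thresholds. The β chains Csf2rb and Csf2rb2 passed upward with E. coli and with both stimuli, Il5ra passed downward with E. coli and with IFN-γ, and no IL-4 point passed.

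Il5ra (ENSMUSG00000005364.11, chr6:106710357-106749037, minus strand), the α chain that gives the receptor its specificity for IL-5, went in the opposite direction to the β chains. It was 387.9, 443 and 455.1 normalized counts with ACs, 263.7, 337.6 and 230.5 with E. coli, 248, 247.6 and 291.4 with IFN-γ, and 299.4, 302.9 and 380.8 with both stimuli. Every library with a stimulus lay below the lowest ACs library. The log2 fold change against ACs was -0.64 with E. coli (SE 0.16, 0.641-fold, 95% interval 0.511 to 0.805, adjusted p = 0.0091 by limma) and -0.71 with IFN-γ (SE 0.16, 0.613-fold, 95% interval 0.488 to 0.769, adjusted p = 0.0021). With both stimuli it was -0.39 (SE 0.16, 0.762-fold, 95% interval 0.607 to 0.957, adjusted p = 0.055) and was not called. The 3 stimulated groups could not be ranked: both stimuli differed from IFN-γ alone by 0.32 (adjusted p = 0.17), both stimuli from E. coli alone by 0.25 (adjusted p = 0.26), and IFN-γ from E. coli by -0.07 (adjusted p = 0.82). The call with E. coli was lost without replicate 3 of ACs, where the log2 fold change was -0.60, and without replicate 3 of E. coli, where it was -0.52.

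A test of the interaction asked whether the log2 change with both stimuli equalled the sum of the single changes. For Il5ra it did not: the interaction was 0.96 (SE 0.22, 95% interval 0.49 to 1.42, adjusted p = 0.012 by limma), so that E. coli was accompanied by a lower Il5ra level in the absence of IFN-γ (-0.64) and by a value of 0.32, which did not pass the test, in its presence. Il5ra was the single receptor called among the 7 in this test, beside 7.44% of the 10166 genes tested. For the others, the interaction was -0.21 for Csf2rb (adjusted p = 0.44), 0.30 for Csf2rb2 (0.22), -0.49 for Csf2ra (0.071), -0.93 for Il3ra (0.080), 0.22 for Csf1r (0.47) and -0.92 for Csf3r (0.19). The Csf2ra interaction passed without replicate 3 of IFN-γ (-0.63), and the Il3ra interaction passed without replicate 1 of the libraries with both stimuli (-1.16). The eosinophil markers moved with Il5ra in part: with IFN-γ, 3 of the 6 tested fell (Siglecf by 0.99, Ear6 by 0.93 and Alox15 by 0.79 on the log2 scale) and none rose, whereas with E. coli, 1 of 6 rose (Ear6, by 1.502) and none fell. With both stimuli, where Il5ra was not called, 2 of 6 fell (Siglecf, -0.76, and Ear2, -3.38) and none rose. Of all genes tested, 10.3% were called with E. coli, 21.4% with IFN-γ and 31.9% with both stimuli. The marker share with both stimuli was thus near the background. With E. coli, the summed level of the eosinophil markers, as given above, overlapped that with ACs at its lower end and reached above it, while Il5ra was lower. The part of these markers in the lower Il5ra with IFN-γ was not tested.

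The promoters of Il5ra and Csf2rb2 are printed as those of the α and the β chain that moved in opposite directions. Promoter sequences from RefSeq (GRCm38.p6, 250 bases before to 50 after the gene start) matched 5 of the 7 receptors, with Csf2rb and Csf1r unmatched. On both strands, 4 motifs were searched: GAGGAA, the core bound by PU.1, TTCNNNGAA, bound by STAT5, TTNNGNAA, bound by C/EBP factors, and GATAAG, bound by the GATA family. Capitals mark every match.
Il5ra, chr6:106748988-106749287, minus strand: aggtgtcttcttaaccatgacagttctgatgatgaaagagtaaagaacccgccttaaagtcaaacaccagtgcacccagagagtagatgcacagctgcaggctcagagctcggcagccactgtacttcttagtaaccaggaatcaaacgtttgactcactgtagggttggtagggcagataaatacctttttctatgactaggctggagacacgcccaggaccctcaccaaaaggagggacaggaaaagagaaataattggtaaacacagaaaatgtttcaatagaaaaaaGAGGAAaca
Csf2rb2, chr15:78305672-78305971, minus strand: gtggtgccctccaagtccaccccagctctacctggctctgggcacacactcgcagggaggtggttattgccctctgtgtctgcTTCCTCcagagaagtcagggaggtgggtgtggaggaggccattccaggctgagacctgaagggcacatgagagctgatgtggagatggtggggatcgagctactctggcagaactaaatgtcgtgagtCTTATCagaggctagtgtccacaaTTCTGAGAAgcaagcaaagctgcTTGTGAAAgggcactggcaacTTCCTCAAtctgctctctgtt
The Csf2rb2 window held 1 match to GATAAG, 2 to GAGGAA, 1 to TTCNNNGAA and 2 to TTNNGNAA, where 1 of the GAGGAA matches overlaps a TTNNGNAA match. The Il5ra window held 1 match to GAGGAA and none to the others. Among the 32851 promoters of the same length, 7.4% held GATAAG, 28.3% GAGGAA, 8.3% TTCNNNGAA and 40.7% TTNNGNAA. GAGGAA also occurred in the windows of Csf3r and Csf2ra, and TTNNGNAA in those of Il3ra and Csf2ra. A match is a run of letters and no measurement of binding.

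Since IL-5 signals through the products of Il5ra and Csf2rb, the ratio of the 2 transcripts was followed within each library. Log2 Il5ra to Csf2rb was -4.45, -4.31 and -4.11 with ACs, -6.09, -5.74 and -6.12 with E. coli, -5.45, -5.44 and -5.43 with IFN-γ, and -6.21, -6.09 and -5.60 with both stimuli. The ACs libraries lay above all others, and the groups with E. coli lay below the group with IFN-γ alone. Averaged over the strata with and without IFN-γ, E. coli was accompanied by a ratio lower by 1.11 on the log2 scale (-1.11, two-sided exact permutation p = 0.005, the smallest this test can give, adjusted p = 0.03). The difference in means was -1.70 without IFN-γ and -0.53 with it, and the difference between these strata was not tested for the ratio. In the same strata, Csf2rb changed with E. coli by 1.05 and 0.84, and Il5ra by -0.64 and 0.32 (the last not called). In the presence of IFN-γ, the lower ratio thus went with a higher Csf2rb and not with a lower Il5ra. For IFN-γ within E. coli strata the difference was -0.57 (exact permutation p = 0.06, adjusted p = 0.18). Without 1 library of IFN-γ the E. coli difference stayed at -1.11 to the second decimal for each of the 3 libraries. It then no longer passed (adjusted p = 0.06 by the exact permutation test). When any other single library of the Type 1 experiment was left out, the difference still passed.

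**Figure D3:**
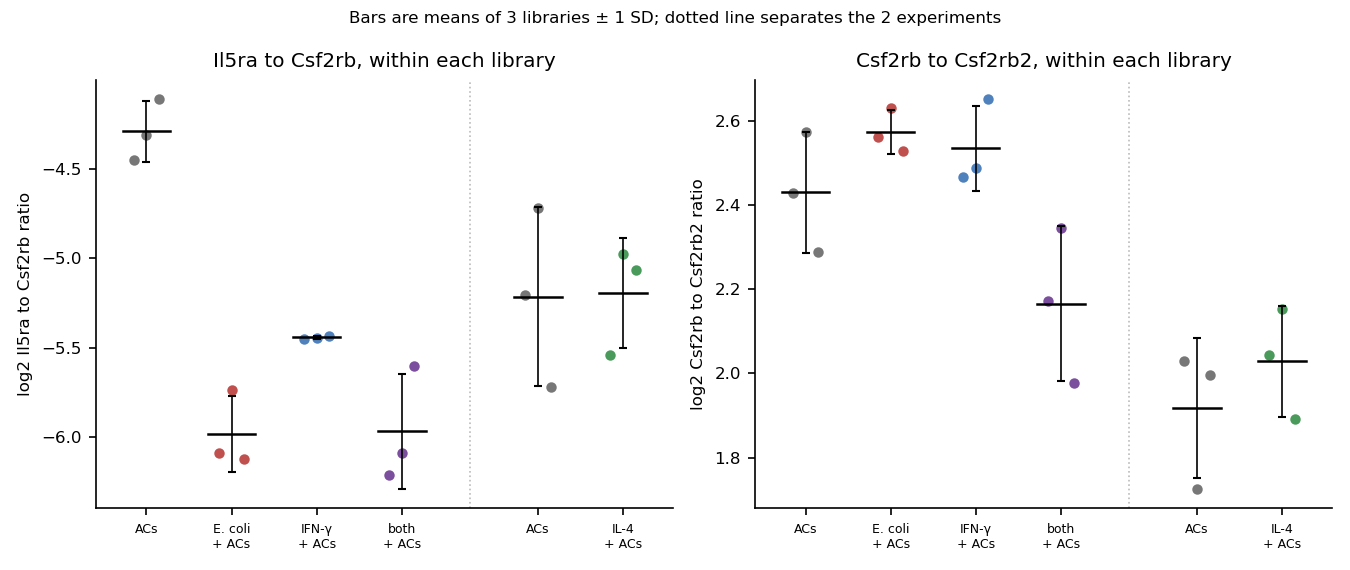
Log2 ratio of Il5ra to Csf2rb (left) and of Csf2rb to Csf2rb2 (right) within each of 18 libraries (points), with means of 3 libraries ± 1 SD; the y axes are log2 scales. Il5ra to Csf2rb was between -4.45 and -4.11 in the ACs libraries of the Type 1 experiment and at most -5.43 in the stimulated ones.

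Csf2ra (ENSMUSG00000059326, chr19:61223957-61228429, minus strand), the α chain of the GM-CSF receptor, was raised with E. coli, to just under the fold threshold. It held 9470, 9121 and 9665 normalized counts with ACs, 14701, 13546 and 14053 with E. coli, 10827, 11915 and 8609 with IFN-γ, and 10610, 10458 and 12039 with both stimuli. E. coli lay above every other group without overlap, and the IFN-γ libraries spread across both the ACs libraries and those with both stimuli. The log2 fold change with E. coli was 0.58 (SE 0.12, 1.497-fold, 95% interval 1.27 to 1.77, adjusted p = 0.0017 by limma), and it passed 1.5-fold without replicate 1 or 3 of ACs or replicate 2 of E. coli (0.59, 0.60 and 0.61). With IFN-γ it was 0.14 (95% interval -0.10 to 0.38, adjusted p = 0.41) and with both stimuli 0.23 (95% interval -0.02 to 0.47, adjusted p = 0.13). Both stimuli lay below E. coli alone by a log2 difference of -0.36 (SE 0.12, adjusted p = 0.030), and IFN-γ below E. coli by -0.44 (SE 0.12, adjusted p = 0.0086), both under 1.5-fold. Thus the α chain for GM-CSF was highest with E. coli alone, whereas the means of the β chains were highest with both stimuli, although for Csf2rb this was not separated from E. coli alone.

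Il3ra (ENSMUSG00000068758.8, chr14:14346275-14356011, plus strand), the α chain of the IL-3 receptor, was low, with between 14 and 141 reads per library. Its normalized counts were 87.8, 76 and 74.2 with ACs, 110.5, 103 and 124 with E. coli, 109.5, 81.4 and 106.7 with IFN-γ, and 101.2, 70.9 and 53.8 with both stimuli. Only the E. coli libraries lay apart from the ACs libraries. Against ACs no change was called: the log2 fold change was 0.50 with E. coli (95% interval 0.03 to 0.97, adjusted p = 0.16 by limma), 0.31 with IFN-γ (-0.16 to 0.78, adjusted p = 0.33) and -0.12 with both stimuli (-0.59 to 0.35, adjusted p = 0.71). Il3ra was lower with both stimuli than with E. coli alone by a log2 difference of -0.62 (SE 0.22, adjusted p = 0.049). That call was lost in edgeR (adjusted p = 0.056) and DESeq2 (adjusted p = 0.059) on the recovered reads, and when any of 9 single libraries was left out, so that the step is not firm. Its direction was opposite to that of Csf2rb2, its partner chain, between the same groups.

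Csf1r (ENSMUSG00000024621, chr18:61100598-61132149, plus strand), the M-CSF receptor, was lower in the groups with E. coli. Its normalized counts were 1319, 1074 and 1118 with ACs, 883.2, 820.8 and 825.1 with E. coli, 995.9, 1179 and 985 with IFN-γ, and 950.8, 897.8 and 814 with both stimuli. Neither group with E. coli overlapped with ACs or with IFN-γ, and these groups overlapped with each other. The log2 fold change was -0.47 with E. coli (SE 0.12, 0.723-fold, adjusted p = 0.011 by limma), -0.40 with both stimuli (SE 0.12, 0.760-fold, adjusted p = 0.012) and -0.15 with IFN-γ (SE 0.12, 95% interval -0.40 to 0.10, adjusted p = 0.38). None reached 1.5-fold. Macrophage markers moved beside it in part. Of the 13 without Csf1r, 6 fell and none rose with E. coli, and 7 fell and 3 rose with both stimuli. With IFN-γ, 1 fell and 6 rose. Of all genes tested, 10.3% were called with E. coli, 31.9% with both stimuli and 21.4% with IFN-γ. In this order, Vsig4 gave -2.73, -3.19 and -0.68 and C1qa -1.32, -2.49 and 0.39 (not called) on the log2 scale. Those that rose with IFN-γ were Marco (2.17), Mertk (1.81), Fcna (1.02), Timd4 (0.997), Lyz2 (0.95) and C1qb (0.90). With both stimuli, Marco (0.84), Adgre1 (0.72) and Mertk (0.60) rose. With IFN-γ the summed level of the 13 markers was higher than with ACs, while Csf1r overlapped. The part of the markers in the Csf1r values was not tested.

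Csf3r (ENSMUSG00000028859.14, chr4:126024550-126044440, plus strand), the G-CSF receptor, was the lowest of the 7 in reads, with 13 to 122 per library. Its normalized counts were 34.2, 48.8 and 35.9 with ACs, 54.4, 35.2 and 73.9 with E. coli, 43.5, 60.8 and 55.4 with IFN-γ, and 29.9, 42.8 and 38.6 with both stimuli. The groups overlapped except for IFN-γ, which lay above both stimuli. None of the changes against ACs was called, with log2 fold changes of 0.41 with E. coli (95% interval -0.20 to 1.01), 0.42 with IFN-γ (-0.18 to 1.03) and -0.09 with both stimuli (-0.69 to 0.52), and adjusted p-values of 0.42, 0.31 and 0.83 by limma. The first 2 intervals include a doubling. Of the 11 neutrophil markers without Csf3r, 6 were tested in the Type 1 experiment. With E. coli, 3 rose and 1 fell beside 10.3% of all genes called. With IFN-γ, 3 rose and 1 fell beside 21.4%, and with both stimuli 4 rose and 1 fell beside 31.9%. Those that rose include S100a8 (2.77, 1.43 and 1.59 on the log2 scale) and S100a9 (4.05, 2.52 and 3.28), calprotectin subunits, while the chemokine receptor Cxcr2 gave 2.68, 0.22 (not called) and 1.94. The marker that fell was Mmp8 with E. coli (-1.44) and with IFN-γ (-1.33), and Retnlg with both stimuli (-0.86). The summed level of these 11 markers was 2157 to 2436 normalized counts with ACs and 2472 to 2799 with E. coli. It was 2251 to 2715 with IFN-γ and 1663 to 2074 with both stimuli, the latter wholly below ACs. Mpo and Elane were at 0 in all libraries with E. coli, IFN-γ or both stimuli.

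Set beside all genes, the receptors were called as follows. With E. coli, 3 of 7 were called (2 higher, 1 lower) where 10.3% of the 10166 genes tested were called. With IFN-γ, 1 of 7 was called (lower) beside 21.4% of all genes, and with both stimuli 2 of 7 (both higher) beside 31.9%, so that the receptor share was near the background in these comparisons. Between both stimuli and IFN-γ alone, 2 of 7 were called (both higher) beside 14.6%. Between both stimuli and E. coli alone, 2 of 7 were called (Csf2rb2 higher, Il3ra lower) beside 19.4%, and between IFN-γ and E. coli, 1 of 7 (Csf2rb) beside 16.6%. The first 3 comparisons share the ACs libraries, so that a low or high ACs value enters each of them. The median log2 change of the 7 was 0.50 with E. coli, 0.31 with IFN-γ and -0.09 with both stimuli, beside medians over all genes between -0.05 and 0.

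In the IL-4 experiment, none of the 7 receptors was called, at an adjusted or an unadjusted p under 0.05, and 0 were called by edgeR or DESeq2 on the recovered reads (1.09% of 10669 genes were called by limma). Il5ra was 148.9, 159.6 and 101.9 normalized counts with ACs and 140.8, 200.8 and 154.2 with IL-4 + ACs, and Csf2rb was 5534, 4225 and 5415 with ACs and 6610, 6344 and 5186 with IL-4 + ACs. The groups overlapped for both. Csf2rb2 was 1355, 1277 and 1356 with ACs and 1603, 1425 and 1398 with IL-4 + ACs, which do not overlap. The log2 fold change was 0.28 for Il5ra (95% interval -0.24 to 0.80), 0.26 for Csf2rb (-0.07 to 0.59) and 0.15 for Csf2rb2 (-0.12 to 0.41), with adjusted p-values of 0.73, 0.61 and 0.73. It was 0.01 for Csf2ra (-0.31 to 0.33), -0.31 for Il3ra (-1.07 to 0.46), -0.18 for Csf1r (-0.47 to 0.10) and 0.49 for Csf3r (-0.15 to 1.12), with adjusted p-values of 0.99, 0.79, 0.69 and 0.62. The intervals of the β chains and Csf2ra thus end below the size of the Csf2rb change with E. coli, 1.05, whereas that of Csf3r does not.

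Replicate 3 of both groups stood apart by its depth. The Il3ra values of IL-4 + ACs were 48.1, 43.2 and 107.9 normalized counts, of which the last rests on 21 reads, beside 69.2, 83.3 and 75.1 with ACs. Without both replicates 3, the number called stayed at 0, and the log2 fold change was -0.72 for Il3ra (adjusted p = 0.059 by limma), 0.42 for Csf2rb (adjusted p = 0.058) and 0.12 for Il5ra (adjusted p = 0.72). The other receptors gave 0.20 for Csf2rb2, 0.08 for Csf2ra, -0.29 for Csf1r and 0.42 for Csf3r. In the IL-4 experiment the log2 ratio of Il5ra to Csf2rb differed by 0.02 between the groups (exact permutation p = 1, where 0.1 is the smallest p that 3 against 3 libraries allow), and that of Csf2rb to Csf2rb2 by 0.11 (exact permutation p = 0.4, adjusted p = 0.48).

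The IL-4 and IFN-γ responses were compared in a fit of all 18 libraries, each change taken against its own ACs. Each cytokine was used in its own experiment, so cytokine and experiment cannot be told apart in a difference between the responses. The mean of Il5ra with ACs of the IL-4 experiment, 136.8 normalized counts, was already below its mean with IFN-γ, 262.3. Il5ra differed: the IL-4 change exceeded the IFN-γ change by 0.99 on the log2 scale (SE 0.26, adjusted p = 0.014 by limma), and by 0.83 without both replicates 3 (adjusted p = 0.030). It was the 1 receptor called of 7, beside 14.3% of the 10414 genes tested. Without both replicates 3, Il3ra was called as well (-1.03, adjusted p = 0.042). For the β chains the difference was -0.19 for Csf2rb (95% interval -0.55 to 0.18) and -0.20 for Csf2rb2 (-0.49 to 0.10), and neither passed.

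The ACs libraries of the experiments, which share their nominal condition, differed in 3 of the 7 receptors, beside 19.2% of 10592 genes. Il5ra was lower in the IL-4 experiment by 1.66 on the log2 scale (-1.66, SE 0.19, adjusted p = 2.3e-04 by limma), as were Csf2ra (-0.79, SE 0.13, adjusted p = 0.0024; 5195, 4723 and 6600 normalized counts) and Csf2rb (-0.74, SE 0.13, adjusted p = 0.0027). Csf2rb2 (-0.22, adjusted p = 0.14), Il3ra (-0.06, adjusted p = 0.84) and Csf3r (0.50, adjusted p = 0.20) did not pass. Csf1r was higher by 0.47 (SE 0.12, adjusted p = 0.020), under 1.5-fold, with 1539, 1779 and 1539 normalized counts. The gap in Il5ra between the ACs groups was thus larger than any of its changes with a stimulus. Beside it, 3 of 8 eosinophil markers tested and 6 of 13 macrophage markers were higher in the IL-4 experiment and none was lower; their part was not tested, and the experiment and whatever differed with it cannot be told apart.

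Of the 6 ligands of these receptors, Il3 had no read in any of the 18 libraries, which allows up to 3 reads, or between 1.58 and 16.1 normalized counts, in each, and Csf2 and Il34 were at or near 0. Il5 is the gene that the mice also carry as a transgene, and its normalized counts were 400.9, 385.7 and 420.8 with ACs, 658.8, 722.7 and 579.7 with E. coli, 242.7, 210.9 and 221.6 with IFN-γ, and 410.5, 353 and 393.2 with both stimuli. Il5 thus rose with E. coli (log2 fold change 0.69, SE 0.13, adjusted p = 9.5e-04 by limma) and fell with IFN-γ (-0.84, SE 0.13, adjusted p = 6.1e-05), and it was -0.06 with both stimuli. Whether these reads come from the transgene or the native gene was not tested. Csf3, which encodes G-CSF, was 4.88, 4.69 and 9.79 with ACs and 90.4, 63.8 and 113.5 with E. coli, and 61.3, 47.6 and 37.3 with both stimuli. The log2 fold changes were 3.62 (SE 0.42, adjusted p = 7.2e-06) and 2.78 (SE 0.42, adjusted p = 3.8e-05), while its receptor Csf3r was not called in the same comparisons. Csf1, which encodes M-CSF, was not called in any of the 4 comparisons. Its log2 fold change was -0.58 with IFN-γ (SE 0.14, adjusted p = 0.0052 by limma), just short of 1.5-fold. With both stimuli it was 0.45 (SE 0.14, adjusted p = 0.020 by limma), also under 1.5-fold.

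Downstream of the receptors, 27 genes for kinases, adaptors and STATs that relay their signal were tested. With E. coli, 2 rose (Map2k1 and Ptpn11) and 1 fell (Jak2), beside 10.3% of all genes called in either direction. With IFN-γ, 6 rose and none fell beside 21.4%, and these shares are near the background. With both stimuli 11 rose and 1 fell (Pik3r1) beside 31.9%, and with IL-4 none was called beside 1.09%. The medians of the list were 0.21, 0.07, 0.51 and -0.01 on the log2 scale, where those of all genes lay between -0.05 and 0. Map2k1, the kinase MEK1, was 1018, 1048 and 923.2 normalized counts with ACs, 1736, 1578 and 1639 with E. coli, 1888, 1911 and 2366 with IFN-γ, and 3846, 3048 and 3531 with both stimuli, and no 2 of these groups overlapped. Its log2 fold changes were 0.73 with E. coli (SE 0.12, adjusted p = 2.5e-04 by limma), 1.04 with IFN-γ (SE 0.12, adjusted p = 1.7e-06) and 1.80 with both stimuli (SE 0.12, adjusted p = 6.5e-10). Stat3 rose by 1.08 with IFN-γ and 1.72 with both stimuli, Gab2, a docking protein, by 0.83 and 0.77, and Sdcbp, which encodes syntenin and binds the IL-5 receptor α chain, by 0.95 and 0.98. Of the STAT5 genes through which these receptors are known to act, Stat5b rose with both stimuli by 0.96 and Stat5a was not called (0.42).

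**Figure D4:**
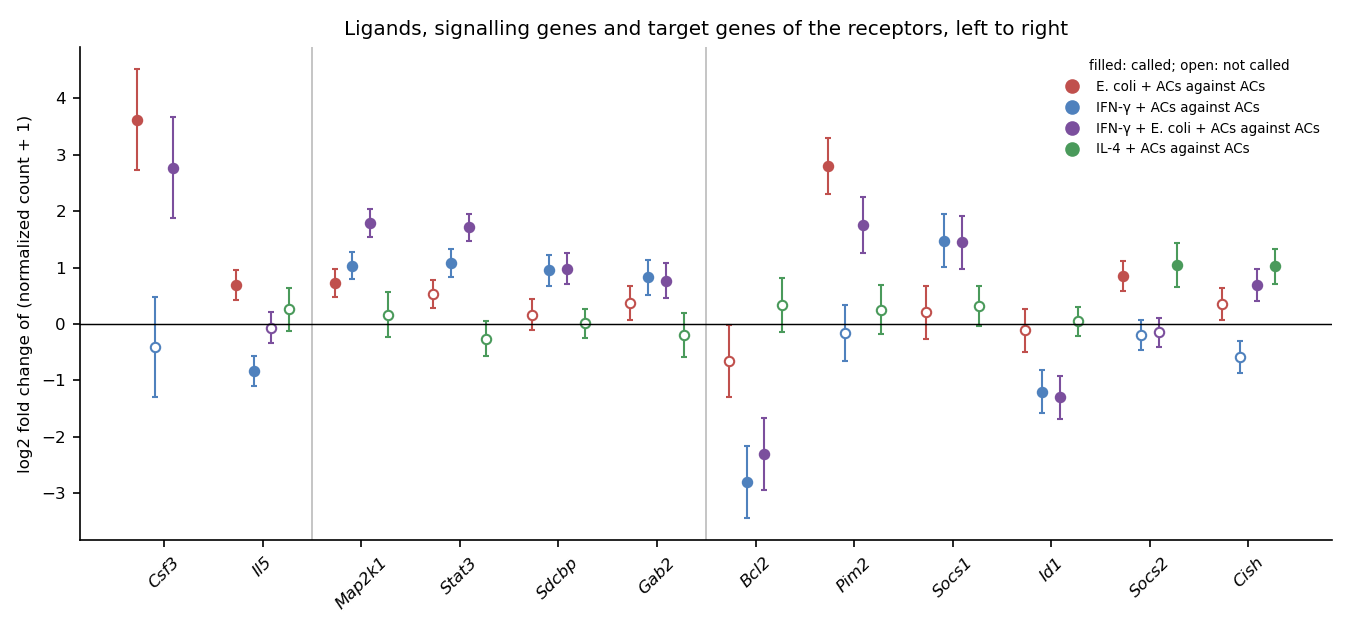
Log2 fold change of (normalized count + 1) against ACs of the same experiment (y axis), with 95% intervals, for ligand, signalling and target genes of the receptors, chosen among those called in at least 2 comparisons (x axis); filled points were called. The 4 signalling genes shown rose with IFN-γ and with both stimuli, for which they were chosen, and among the targets Pim2 rose with E. coli and with both stimuli and Bcl2 and Id1 fell with IFN-γ and with both stimuli. Bcl2l1, which rose with IFN-γ, and Mcl1, which rose with both stimuli, are not shown.

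Among 15 feedback and survival genes known as targets of these cytokines, Myc was too low to test. With E. coli, 2 of 14 rose (Pim2 and Socs2) and none fell beside 10.3% of all genes called, which is near the background. With IFN-γ 2 rose and 3 fell beside 21.4%, with both stimuli 6 rose and 2 fell beside 31.9%, and with IL-4 2 rose (Cish and Socs2) and none fell beside 1.09%. The medians were 0.28, -0.18, 0.39 and 0.23 on the log2 scale. Pim2, a survival kinase, was 83, 65.7 and 81.6 normalized counts with ACs, 548.3, 506.9 and 554.2 with E. coli, and 280.8, 372.6 and 168.3 with both stimuli. Its log2 fold changes were 2.80 (SE 0.24, adjusted p = 1.5e-07 by limma) and 1.76 (SE 0.24, adjusted p = 9.5e-06). Bcl2, an inhibitor of apoptosis, was 214.7, 186.8 and 265.9 with ACs, 21.1, 60.8 and 22.6 with IFN-γ, and 48.5, 50.1 and 34.5 with both stimuli, and fell by 2.80 (SE 0.30, adjusted p = 9.7e-07) and by 2.30 (SE 0.30, adjusted p = 7.2e-06) on the log2 scale. Id1, an inhibitor of DNA binding, fell in the same comparisons to 0.435-fold and 0.407-fold. The Bcl2 relatives Bcl2l1 and Mcl1 in the list did not follow Bcl2. Bcl2l1 rose with IFN-γ (0.86, SE 0.20, adjusted p = 0.0033 by limma), and Mcl1 rose with both stimuli (0.84, SE 0.09, adjusted p = 9.7e-07). Among the feedback inhibitors of cytokine signalling, Socs1 rose with IFN-γ (1.48) and with both stimuli (1.45, with libraries between 4458 and 12787 normalized counts). Socs2 rose with E. coli (0.85, SE 0.12, adjusted p = 8.1e-05) and with IL-4 (1.04, SE 0.17, adjusted p = 0.020). Socs3 rose with both stimuli (0.72, SE 0.18, adjusted p = 0.0034). Cish, a feedback inhibitor known to be induced through STAT5, rose with IL-4, from 347.4, 354.2 and 300.2 normalized counts with ACs to 657.6, 716.6 and 668.2 with IL-4 + ACs (1.03, SE 0.14, adjusted p = 0.0063), and with both stimuli (0.69, SE 0.13, adjusted p = 4.3e-04). With IFN-γ alone its log2 fold change was -0.58 (adjusted p = 0.0030), just short of 1.5-fold. In the IL-4 comparison, Cish and Socs2 were thus called while no receptor of the 7 was.

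The transcripts most like each receptor were ranked by Pearson correlation of log2(normalized count + 1) over the 12 libraries of the Type 1 experiment, among 6903 genes. These values are descriptions over libraries that share 4 conditions and their size factors. Nearest to Csf2rb were Ncf1, a subunit of the phagocyte NADPH oxidase (r = 0.98), Irak3 (0.97) and Ppp2cb (0.97), and nearest to Csf2rb2 were Irak3, an inhibitor of Toll-like receptor signalling (0.99), Adgre1, the F4/80 antigen (0.98), and Pcmt1 (0.98). Csf2rb and Csf2rb2 had r = 0.95 with each other. Lrif1, Rnase6 and Cast came nearest to Il5ra (0.97, 0.94 and 0.92), Slpi, Cd14 and Sri to Csf2ra (0.91, 0.90 and 0.90), and Mcemp1, Slc38a6 and Ptpn18 to Csf1r (0.95, 0.91 and 0.89). For Il3ra (Vps37c, Mlx and Yif1b, 0.88, 0.87 and 0.87) and Csf3r (Ufc1, Ssr4 and Rps9, 0.83, 0.82 and 0.80) the values were lower. Among the receptors, Csf1r ran opposite to Csf2rb (r = -0.82) and Csf2rb2 (-0.74), and Il5ra had r = -0.42 with Csf2rb and -0.27 with Csf2rb2.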

How the data were processed

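RNA of eosinophils was sequenced by CEL-Seq2, which reads the 3′ ends of transcripts. The deposited table holds, as signal, gene counts that the authors divided by DESeq2 size factors; per the submitters' processing notes, reads were trimmed with Trim Galore and cutadapt 1.10, aligned to GRCm38 with TopHat2 2.1.0 and Bowtie2 2.2.6, counted with HTSeq 0.6.1 and normalized with DESeq2 1.26.0, whereas the study's methods also name fastp and STAR, and which of these made the table is not given in the sources used here. Only uniquely mapped reads were counted, per the study. Of the 54446 gene IDs, 54409 matched a GENCODE symbol and 37 did not. Every library's values were whole multiples of the worth of 1 read (100.0% within a tolerance of 0.01 normalized counts), so whole reads were recovered and library depth is the sum of those reads, 779421 to 7782072. Replicates differed by more than sampling noise (chi-square per degree of freedom 3.92 to 13.15).

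The ACs libraries were placed in an experiment by the wording of their sample descriptions, since no label names the experiment. Each experiment was fitted with limma 3.58.1 (trended eBayes; R 4.3.3) on log2(normalized count + 1) over genes with a mean of at least 10, without covariates. Benjamini-Hochberg adjustment ran over all genes tested, 10166 in the Type 1 and 10669 in the IL-4 experiment. Genes were called at an adjusted p under 0.05 and at least 1.5-fold. All adjusted p-values in the text are from limma unless another tool is named. Ratios were compared by two-sided exact permutation tests written with numpy 2.4.6 (400 arrangements within strata, 20 for IL-4). Alternatives were edgeR 4.0.16 and DESeq2 1.42.0 on recovered reads, other pseudocounts, filters and scalings, a replicate block, all 18 libraries in one fit, and leaving out libraries. The scripts were tested on simulated data. The 7 receptors and the ligand, signalling, target and marker lists were chosen with earlier results of these data known. Named were all receptors, list genes called in at least 2 of 4 comparisons against ACs (at most 6 per list), and the 3 genes most correlated with each receptor; list genes called in a single comparison and Stat5a, Stat5b, Csf1, Il3, Csf2, Il34, Myc and markers were named after their values were seen. Of the named signalling genes, 2 are not reported here.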

Additional observations from a re-analysis of the deposited data

Results flagged for a closer look

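One result met a rule for a closer look, because the effect of E. coli differed between cultures with and without IFN-γ by a test of the difference itself. For Il5ra, the log2 change with E. coli in the presence of IFN-γ minus that in its absence was 0.96 (SE 0.22, adjusted p = 0.012 by limma). The change was -0.64 without IFN-γ, where all 3 E. coli libraries lay below all 3 ACs libraries. That call was lost without replicate 3 of ACs or of E. coli. With IFN-γ the change was 0.32, where all 3 libraries with both stimuli lay above all 3 IFN-γ libraries. This rise was not called (adjusted p = 0.17 by limma). Across the alternatives tried, the difference was between 0.83 and 1.11, with adjusted p-values between 9.5e-04 and 0.042. What lies behind it was not tested.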

How the results depend on the processing

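The calls of Csf2rb and Csf2rb2 against ACs with E. coli and with both stimuli, of Il5ra with IFN-γ and of the Il5ra interaction held under the alternatives tried. Without the fold threshold, the receptors called were 5 with E. coli, 3 with IFN-γ and 3 between IFN-γ and E. coli. Between both stimuli and E. coli, 1 receptor was called over all genes above 0, after upper quartile scaling, in edgeR, in DESeq2 and with all 18 libraries in one fit, and 1 to 2 without single libraries. Between IFN-γ and E. coli it was 2 after upper quartile scaling and 0 to 2 without single libraries. The interaction called 495 genes with all 18 libraries and 400 to 1026 without single libraries (receptors 1 to 2). Genes called with IL-4 numbered 116, against 208 over all genes above 0, 212 in edgeR, 209 in DESeq2, 221 with all 18 libraries, 656 without both replicates 3 and 47 to 130 without single libraries, and the IL-4 minus IFN-γ receptors were 2 without both replicates 3 and 1 to 2 without single libraries. ACs of the experiments differed in 1264 to 2734 genes without single libraries, the lowest without replicate 3 of ACs of the Type 1 experiment. The Il5ra to Csf2rb difference with E. coli was -1.20 to -1.05 without single libraries, and that with IL-4 -0.23 to 0.27.

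Values near 0 changed sign: Csf1r both stimuli against E. coli was -0.036 and Csf1r IL-4 minus IFN-γ 0.053 after upper quartile scaling, Csf3r IFN-γ against E. coli was -0.040, -0.047 and -0.040 under upper quartile scaling, edgeR and DESeq2, and Csf3r IL-4 minus IFN-γ was -0.0020 without both replicates 3. Without single libraries, the log2 values ranged for both stimuli from -0.20 to 0.067 (Csf3r) and -0.35 to 0.097 (Il3ra), for both stimuli against IFN-γ from -0.044 to 0.19 (Csf2ra), for IFN-γ against E. coli from -0.19 to 0.085 (Il5ra) and -0.26 to 0.26 (Csf3r), for IL-4 from -0.093 to 0.15 (Csf2ra), for IL-4 minus IFN-γ from -0.12 to 0.052 (Csf1r), -0.16 to 0.22 (Csf3r) and -0.26 to 0.011 (Csf2ra), and for the ACs groups from -0.13 to 0.0097 (Il3ra). These changes of sign and of count have causes that were not tested, except that tests without a library have fewer samples.

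Replicate numbers recur between groups, although the titles of the ACs libraries of the IL-4 experiment number them differently from their descriptions. The deviations of same-numbered libraries had correlations of -0.087 to 0.09 over 18 pairs of the Type 1 experiment and 0.015 to 0.036 over 3 pairs of the IL-4 experiment. No shared deviation was thus seen, which does not show that the libraries were unpaired. With a replicate block, 74 genes were called with IL-4 and no receptor call changed. The shallow replicates 3 of the IL-4 experiment limit Il3ra and Csf3r, at 13 to 21 reads, and Il5ra, at 19 and 30.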
